A study of Mus musculus with 2 samples.

Results

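The Mir379 to Mir410 cluster is a run of microRNA (miRNA) hairpin genes at the distal end of the imprinted Dlk1-Dio3 region of mouse chromosome 12. Its members were taken by position, as every miRNA gene row of GENCODE M21 on the plus strand between 109.7 and 109.75 Mb (mm10), with no regard to level. The rule found 39 of the 2202 miRNA genes in the tables, from Mir379 at 109709060 to Mir3072, a hairpin beyond Mir410 that ends at 109747960, a span of 38.9 kb. The data are short-RNA read counts from 2 libraries of hippocampus from female B6CASTF1/J mice aged 25 days, biological replicates 1 and 2 of 1 group. B6CASTF1/J mice are C57BL/6J by CAST/EiJ hybrids, and the labels name no treatment. Each library has its own tissue sample entry, while both carry the same donor entry, and the labels do not say what that entry stands for, so the spread between them may or may not be one between animals. The labels name the tissue as a layer of the hippocampus without saying which, and do not say whether tissue of several animals was pooled. With 1 group there is no comparison of conditions, so the results are the members' levels and how far both libraries differed.

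A miRNA hairpin is cut from a longer transcript and then trimmed to a short duplex, and the strand that is kept guides Argonaute to messenger RNAs, mainly through its seed, bases 2 to 8. The genes of this cluster are expressed from the chromosome inherited from the mother, which in mouse strain naming is the strain written first in a cross. They are known from brain, where the transcription factor Mef2 induces the cluster with neuronal activity and several products act on dendrites and synapses. Mir134 limits dendritic spine growth by repressing Limk1 and also represses Pumilio2, Mir381 and Mir329 take part in activity-dependent dendrite growth, and Mir485 acts on synapse number. Transcripts of the Mir376 genes, and of Mir379 and Mir411, are also known for A-to-I RNA editing, which can change the seed. Neither alleles nor edited bases were examined.

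Each count belongs to a whole gene and does not separate the arms of a hairpin, so the sequences of both arms bear on a gene's level. RefSeq (GRCm38.p6) gave a hairpin for 36 of the 39 members and 71 mature arms, with both arms for 33 members and 1 arm for 5. Mature arms were 19 to 25 bases long, with a median of 22, so levels of different members were compared without scaling for length. The 71 arms carried 65 distinct seeds. Among these arms only 6 seeds were shared by a pair of members, and these pairs are shown first, as the seed families found. Arms without a RefSeq entry could not be compared, so further seed families within the cluster may be missed. Capitals mark the seed.
miR-379-3p: uAUGUAACaugguccacuaacu
miR-411-3p: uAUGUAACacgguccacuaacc
miR-379-5p: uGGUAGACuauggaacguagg
miR-1193-5p: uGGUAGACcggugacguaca
miR-376b-5p: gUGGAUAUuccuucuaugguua
miR-376c-5p: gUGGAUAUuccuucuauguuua
miR-494-5p: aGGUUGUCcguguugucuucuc
miR-410-5p: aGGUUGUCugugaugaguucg
miR-496a-5p: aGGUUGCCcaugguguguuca
miR-453: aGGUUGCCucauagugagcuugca
miR-758-5p: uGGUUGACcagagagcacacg
miR-1197-5p: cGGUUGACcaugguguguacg

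The members' hairpins resembled each other more than the few shared seeds show. For 30 of the 36 hairpins (83.3%) the best global alignment among all 1005 RefSeq mouse hairpins at other positions was to another member, while members made up 3.58% of those hairpins. The identity to the best match ran from 54.4% to 80.7%, with a median of 65.7%, and was highest for Mir376b and Mir376c. The exceptions were Mir679, Mir654, Mir668, Mir453, Mir541 and Mir3072. The letters UACUUG stood in 10 of the 36 member hairpins (27.8%) and in 26 of all 1005 (2.59%), and AGUAUC in 7 (19.4%) and 21 (2.09%). These letters were chosen after the sequences were seen, were searched only in the hairpin as transcribed, and do not overlap each other. Both stood in 4 members and in 5 hairpins of the whole table. Those 4 are printed to show the common base of the stem, with the searched letters in capitals.
Mir411: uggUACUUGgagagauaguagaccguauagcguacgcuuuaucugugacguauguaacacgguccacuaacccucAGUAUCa
Mir494: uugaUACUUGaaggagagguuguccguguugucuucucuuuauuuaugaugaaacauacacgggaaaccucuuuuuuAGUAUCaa
Mir487b: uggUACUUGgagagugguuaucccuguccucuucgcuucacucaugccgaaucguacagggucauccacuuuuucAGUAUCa
Mir369: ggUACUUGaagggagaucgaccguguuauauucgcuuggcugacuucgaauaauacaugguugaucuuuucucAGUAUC

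Long exact repeats were rare among the members. Only Mir376b and Mir376c had 22 or more consecutive bases in common with another miRNA gene, in each case with the other one, against 1032 of all 2202 genes. The tables count multiply matching reads apart from the genes, so these 2 levels can be too low. A miRNA gene is annotated on the opposite strand at 5 members, Mir299a, Mir380, Mir376a, Mir539 and Mir409, and the count without strand is 0 for each of them in both libraries. The strand-specific count was therefore used throughout. Reads on the opposite strand were nearly absent: no member had any in replicate 1, and only Mir299a had 3 in replicate 2. Mir299b, the gene annotated on that strand there, also had 3 counts in replicate 2.

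Of the 39 members, 35 were detected, that is, had in each library at least 2 CPM (counts per 1000000 counts in miRNA gene rows), or 89.7%, against 19.7% of all 2202 miRNA genes. Reads that match several places are counted for no gene. Of all genes 1032 share 22 or more bases with another miRNA gene, but only 2 members do. The members' detection, share of counts and ranks beside all genes can therefore be too high, and by how much was not tested. The members held 404869 of the 5481053 counts of replicate 1, which is 7.39% (exact 95% Clopper-Pearson bounds 7.365 and 7.409). In replicate 2 they held 283691 of 4266963, or 6.65% (6.625 and 6.672). Their mean share was 7.02% ± 0.522 (SD, n = 2). Such bounds cover counting error only, as amplified copies are not separate molecules. The 4 members not detected were Mir1197, with 7 and 14 counts in replicates 1 and 2, the unnamed hairpin Gm27379, with 1 and 8, and Mir654 and Mir453, with none in either. A count of 0 allows up to 3 counts, or 0.547 CPM in replicate 1 and 0.703 CPM in replicate 2.

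No member was among the 10 most abundant miRNA genes, but 16 were among the 100 most abundant in replicate 1 and 11 in replicate 2. The order within the cluster was steep. At least 1000 CPM was reached by 16 members in replicate 1 and 13 in replicate 2, and at least 10000 CPM by 1 and 2. Ranked by mean CPM, the top 5 members took 55.0% of the cluster's counts in the first library and 69.6% in the second. The top 12 took 86.3% and 87.2%. The top 5 of each library had 4 genes in common, and the top 12 had 9.

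Mir487b (ENSMUSG00000076219.1, 109727333 to 109727414) was the most abundant member in both libraries. It was at 15302 CPM in replicate 1 and 17234 in replicate 2, rank 14 of all miRNA genes in each, and alone held 20.7% and 25.9% of the cluster's counts. Mir382 (109733771 to 109733846) followed at 7420 CPM in replicate 1 and 16145 in replicate 2, so that its distance to Mir487b depended on the library. Mir541 (109742409 to 109742498) was at 6588 and 5443 CPM. Mir411 was at 6703 and 4384 CPM, and Mir379, the first member of the cluster, at 4650 and 3038. In replicate 1 Mir411 stood above Mir541, and in replicate 2 below it.

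The next members by mean CPM ran from Mir409 down to Mir667. Mir409 (109743158 to 109743236) was at 3385 CPM in replicate 1 and 3804 in replicate 2, and Mir323 at 3392 and 2399. Mir369, whose 3p product is known to bind AU-rich elements, was at 3523 and 2055 CPM, and Mir154 at 1904 and 1241. Scaled to library totals, these 4 lay within 2-fold between the libraries, and Mir369 did not after TMM or DESeq2 scaling (log2 ratio -1.14). Mir485 (109734902 to 109734974) was at 4422 and 1188 CPM, Mir668 (109734732 to 109734797) at 3926 and 533, and Mir667 (109720006 to 109720097) at 2558 and 491. These last 3 were high in replicate 1 and low in replicate 2, so their means of 2805 ± 2287, 2230 ± 2399 and 1525 ± 1461 CPM (SD, n = 2) have an SD close to or above the value itself.

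**Figure D1:**
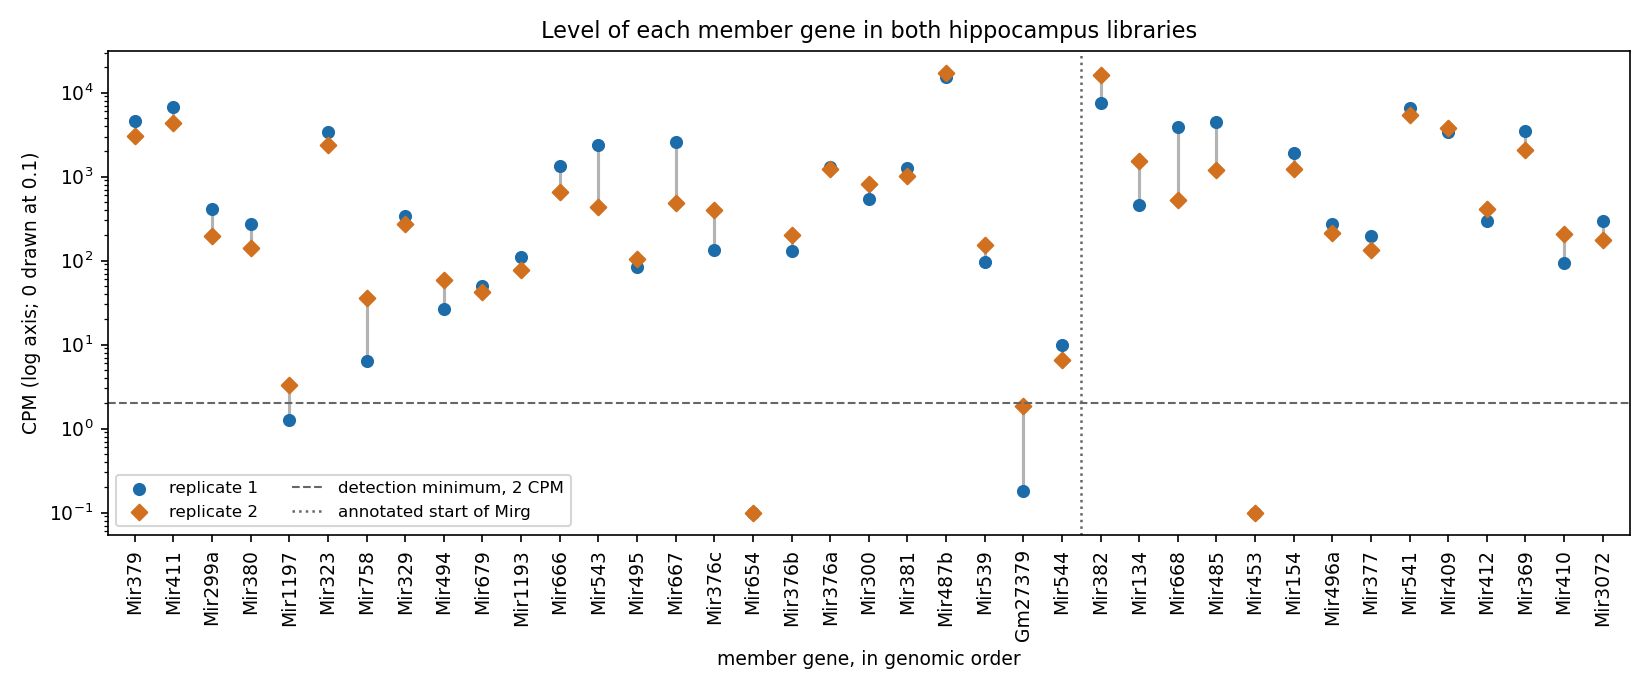
Level of each of the 39 member genes in CPM (log axis) in genomic order from Mir379 to Mir3072, with circles for replicate 1, diamonds for replicate 2 and a grey line joining both; values of 0 are drawn at 0.1. Levels vary widely along the cluster, with Mir487b highest at 15302 and 17234 CPM and Mir654 and Mir453 at 0.

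Mir134, Mir381 and Mir329, which act in dendrites, were not among the 12 members with the highest mean CPM. In replicate 2 alone Mir134 stood above Mir154, Mir485, Mir668 and Mir667, and Mir381 above Mir668 and Mir667, all of which are among those 12. Mir134 (109734139 to 109734209) was at 459 CPM in replicate 1 and 1532 in replicate 2, ranks 139 and 93. Mir381 was at 1252 and 1015 CPM, and Mir329 at 342 and 273. Of the edited Mir376 genes, Mir376a was at 1284 and 1245 CPM, the smallest difference of any detected member when scaled to library totals, Mir376c at 133 and 398, and Mir376b at 129 and 204. Mir410, for which the far end of the cluster is named, was at 92.3 and 205 CPM. The lowest detected members were Mir544 at 9.85 and 6.56 CPM and Mir758 at 6.39 and 36.3.

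Levels of neighbours were often far apart. Between the 34 adjacent pairs of detected members the mean CPM differed by a median factor of 7.37, and by more than 4-fold in 20 pairs. The same factor is not given for pairs that are not adjacent, so such distances are not shown to be particular to neighbours. The largest step was 1436-fold, from Mir544 up to Mir382, across the longest gap of 4446 bases between starts. Mir323 and Mir758, whose starts are 302 bases apart, stood at a ratio of 531 (exact 95% interval 382 to 763) in replicate 1 and 66.0 (56.3 to 77.9) in replicate 2. Across the 35 detected members, log2 of (mean CPM + 1) had a Spearman rho of 0.12 with position and 0.17 with the GC content of the hairpin gene. Both are descriptions across genes that share libraries and a transcript.

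The first 19 members by position, Mir379 to Mir376a, held 2.39% of the first library and 1.42% of the second. The last 20, Mir300 to Mir3072, held 5.00% and 5.23%. The mean of log2(CPM + 1) was 7.63 ± 0.14 (SD, n = 2) for the first and 8.72 ± 0.06 for the last. Of the 39 members, 25 lie upstream of the host gene Mirg as GENCODE M21 annotates it (109729764 to 109749460), among them Mir487b, and 14 lie inside it. Of those 14, 4 lie wholly in an exon (Mir134, Mir485, Mir377 and Mir410), 5 overlap one in part and 5 are intronic. The partial overlap is 58 bases for Mir3072, 12 for Mir412, 2 for Mir382 and 1 each for Mir668 and Mir369. The members upstream of Mirg held 55.6% and 50.2% of the cluster's counts in replicates 1 and 2, those touching an exon 27.9% and 33.7%, and the intronic ones 16.4% and 16.1%. Most counts of those touching an exon came from Mir382, Mir668 and Mir369, which lie almost wholly outside exons. They had 40668, 21519 and 19312 of 113082 counts in replicate 1, and 68891, 2276 and 8770 of 95507 in replicate 2. Per gene the order was another and depended on the summary. The mean of log2(CPM + 1) was 7.58 ± 0.05 (SD, n = 2) for the 25 upstream members. It was 9.66 ± 0.19 for the 9 touching an exon and 8.57 ± 0.15 for the 5 intronic ones. The intronic mean includes Mir453, which had no count. By the median of mean CPM the intronic members stood highest, at 1573, against 995 touching an exon and 266 upstream. Over detected members alone these medians were 2584, 995 and 306.

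Genes of the same imprinted region upstream of the cluster, in the Meg3, Rtl1 antisense and Rian part from 109.54 to 109.7 Mb, served for comparison. Of 20 miRNA genes there on the plus strand 16 were detected, and they held 10.6% of counts in replicate 1 and 5.88% in replicate 2. Their 3 most abundant genes were Mir127 at 71805 and 20505 CPM, Mir770 at 12293 and 15820, and Mir433 at 11528 and 8070. Their share differed more between the libraries than that of the cluster, 8.23% ± 3.32 against 7.02% ± 0.522 (SD, n = 2), and Mir127 held 393567 of their 580000 counts in replicate 1 and 87492 of 250950 in replicate 2.

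**Figure D2:**
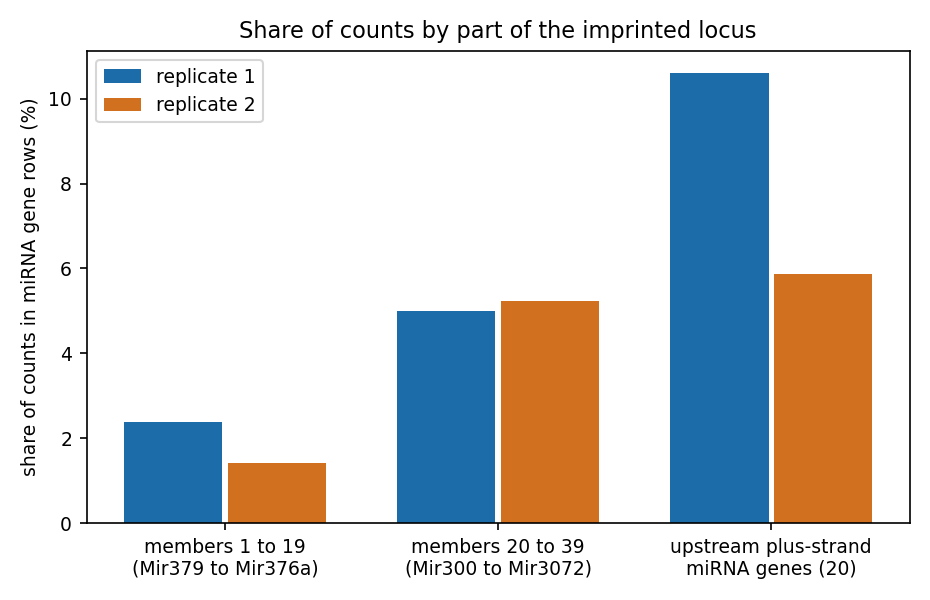
Share of all counts in miRNA gene rows, in percent, held by the first 19 members, the last 20 members and the 20 plus-strand miRNA genes upstream of the cluster, with 1 bar per library. The last 20 members stand at 5.00% and 5.23%, while the upstream genes stand at 10.6% and 5.88%.

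The libraries were then compared member by member. Each difference is a log2 ratio, replicate 2 to replicate 1, of CPM with 1 added, and a gene is called higher or lower from a 2-fold difference on that scale. Folds are given without the added 1 and with exact 95% counting intervals. With 1 library on each side there is no replicate check and no p-value is given. Of the 35 detected members 6 were at least 2-fold higher in replicate 2 (17.1%) and 5 at least 2-fold lower (14.3%), while of all 433 detected miRNA genes 26.1% were higher and 14.8% lower. With edgeR's TMM scaling the same 35 gave 3 higher and 9 lower, and all genes 79 and 91. Scaled to library totals, the share of members called lower was thus close to the background, and the share called higher was below it.

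The members' median log2 ratio was -0.32, against 0.27 over all detected genes, a distance of -0.59. TMM and DESeq2 scaling each moved the median of all genes by -0.33, and the distance was then -0.61. The upstream genes of the region had a median of 0.25 with 2 genes higher and 1 lower, and with either of these scalings a median of -0.11 with 0 higher and 2 lower. Among genes with a mean of at least 100 CPM, the log2 ratio had an SD of 1.13 over 29 members and 1.88 over 189 other genes. Across detected members log2 of (CPM + 1) in both libraries had a Spearman rho of 0.92, and across all detected genes 0.91, as descriptions across genes.

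The members lower in replicate 2 were Mir668, Mir543, Mir667, Mir485 and Mir299a. Mir668 was 7.36-fold lower (7.05 to 7.69), from 21519 counts to 2276. Mir543 (109717258 to 109717333) was 5.61-fold lower (5.34 to 5.89), with 2409 CPM in replicate 1 and 430 in replicate 2, Mir667 5.21-fold (4.97 to 5.45) and Mir485 3.72-fold (3.61 to 3.84). Mir299a was 2.10-fold lower (1.94 to 2.27), with 413 and 197 CPM. Mir666, 173 bases before Mir543, just missed the 2-fold line and was not called, with 1322 and 661 CPM.
The arms of the 3 genes with the lowest ratio are shown. None of their seeds occurs in a RefSeq arm of another member, which holds for all but 6 of the 65 seeds and does not set these genes apart.
miR-668-5p: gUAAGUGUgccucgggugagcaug
miR-668-3p: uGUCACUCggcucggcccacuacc
miR-543-5p: aAGUUGCCcgcguguuuuucg
miR-543-3p: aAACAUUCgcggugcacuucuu
miR-667-5p: cGGUGCUGguggagcagugagcacg
miR-667-3p: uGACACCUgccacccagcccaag

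The members higher in replicate 2 were Mir758, Mir134, Mir376c, Mir410, Mir494 and Mir382. Mir758 was 5.69-fold higher (3.92 to 8.46), on 35 and 155 counts. Mir134 was 3.34-fold higher (3.19 to 3.50), on 2514 and 6536 counts, and Mir376c by 2.99-fold (2.74 to 3.26). Mir410 was 2.22-fold higher (1.99 to 2.48), and Mir494 2.21-fold (1.80 to 2.73), with 26.8 and 59.3 CPM. Mir382 was 2.18-fold higher (2.15 to 2.20) and the most abundant of the 6. It had 40668 counts in the first library and 68891 in the shallower second one. With TMM or DESeq2 scaling Mir410, Mir494 and Mir382 are under 2-fold and Mir758, Mir134 and Mir376c are not. Mir410 and Mir494 share a 5p seed, and Mir376c shares one with Mir376b, which was 1.58-fold higher (1.43 to 1.75).

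**Figure D3:**
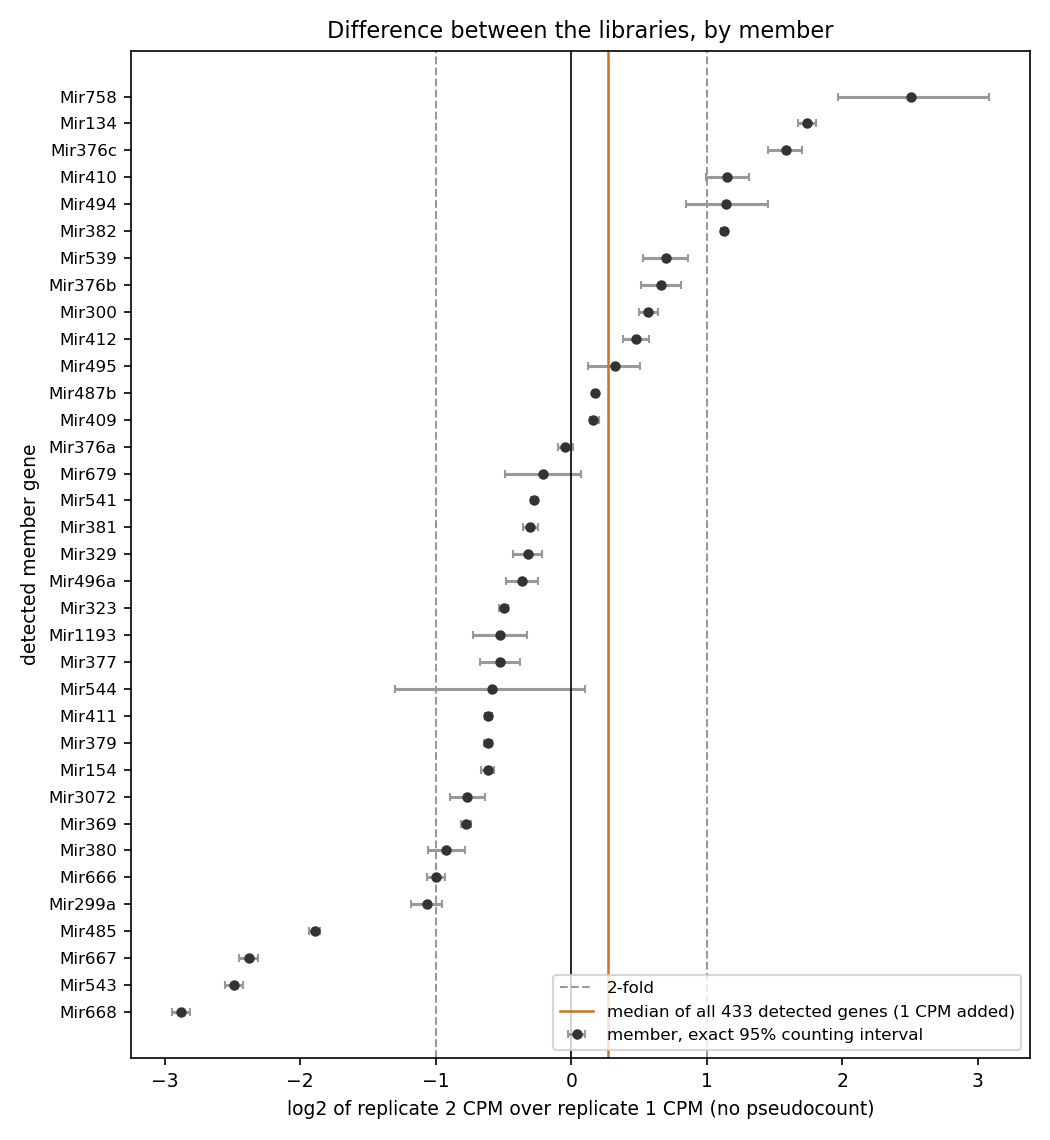
Log2 of replicate 2 CPM over replicate 1 CPM for each of the 35 detected members, ordered by value, with exact 95% counting intervals, dashed lines at 2-fold and an orange line at the median of all detected genes. Mir668, Mir543, Mir667 and Mir485 stand apart at the low end and Mir758, Mir134 and Mir376c at the high end, and 24 members lie within 2-fold.

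Ratios between members of 1 library do not depend on the scaling, and they show neighbours that kept their ratio and neighbours that did not. The pairs named here were chosen after their values were seen. Mir379 and Mir411, 1115 bases apart and with the same 3p seed, had 25486 and 36742 counts in the first library, and 12963 and 18706 in the second. Mir411 stood at 1.44 times Mir379 in both libraries (1.42 to 1.46 and 1.41 to 1.48). In 15 of the 34 adjacent pairs the ratio differed at least 2-fold between libraries, and in 5 the order turned. No such count was made for other pairs of genes, so this is not shown to be particular to neighbours. The largest change among the adjacent pairs was between Mir134 and Mir668, whose starts are 593 bases apart. Mir668 had 8.56 times the counts of Mir134 in replicate 1 (8.21 to 8.92) and 0.348 times in replicate 2 (0.332 to 0.365), a 24.6-fold change.

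Both belong to a group of 4 hairpins that span 1204 bases at or between exons of Mirg, in the order Mir382, Mir134, Mir668 and Mir485. In replicate 1 Mir668 and Mir485 were at 3926 and 4422 CPM, well above Mir134 at 459. In replicate 2 they were at 533 and 1188 CPM, below Mir134 at 1532. Mir382 was the highest of the 4 in both. Mir382 stood at 16.2 times Mir134 in replicate 1 and 10.5 times in replicate 2. The arms of Mir382, Mir134 and Mir485 that have a RefSeq entry are printed. These genes share a short stretch of transcript, and the arms shown share no seed.
miR-382-5p: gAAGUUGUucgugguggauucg
miR-382-3p: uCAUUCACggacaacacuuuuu
miR-134-5p: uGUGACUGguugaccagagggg
miR-134-3p: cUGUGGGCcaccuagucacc
miR-485-3p: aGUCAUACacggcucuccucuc

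**Figure D4:**
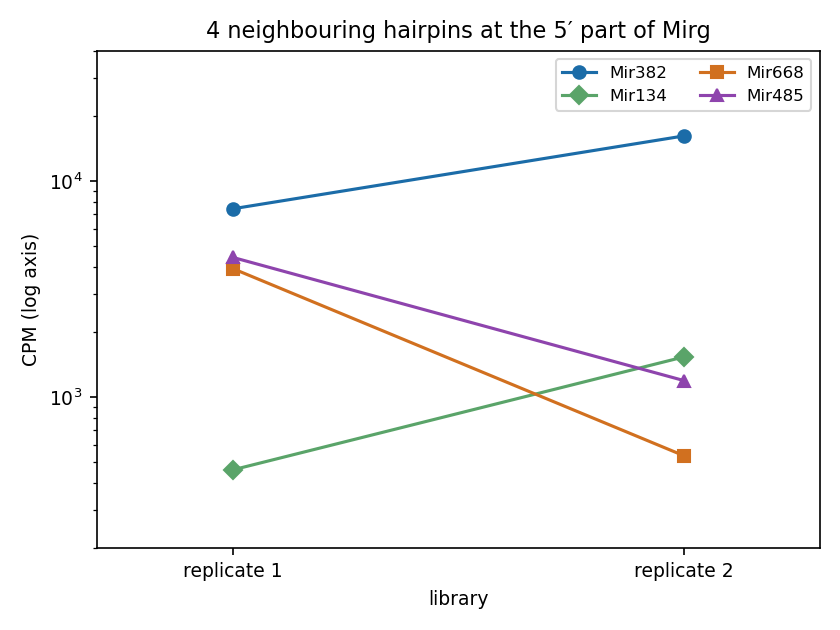
CPM (log axis) of Mir382, Mir134, Mir668 and Mir485 in replicates 1 and 2, with 1 line per gene. Mir382 and Mir134 are higher in replicate 2 (16145 and 1532 CPM) and Mir668 and Mir485 lower (533 and 1188 CPM), so the lines of Mir134 and Mir668 cross.

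GC content of the hairpin gene had a Spearman rho of -0.35 with the log2 ratio over the 35 detected members and -0.22 over the other 398 detected genes, as a description across genes. The 5 members lower in replicate 2 ran from 41.3% to 62.0% GC, with a median of 47.9%. The 6 higher ran from 29.1% to 60.6%, with a median of 40.1%, so the ranges overlap. Mir134, at 60.6%, had the highest GC of the higher members, and Mir299a, at 41.3%, the lowest of the lower ones. The part of base composition in the differences was not tested.

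Markers of cell types moved between the libraries beside these differences. Of 16 neuronal miRNA genes 13 were detected, with a summed level of 48580 CPM in replicate 1 and 50945 in replicate 2, but 5 of the 13 were at least 2-fold higher and 6 at least 2-fold lower. The 3 oligodendrocyte genes summed to 6503 and 939 CPM, with 1 at least 2-fold higher and 1 lower, and the 7 epithelial genes, 6 of them detected and all 6 higher, to 111 and 6267. The 3 genes of the sensory Mir183 cluster summed to 28.3 and 1839 CPM. The 7 microglia and blood genes summed to 2053 and 1122 CPM, with 3 at least 2-fold higher and 3 lower. The 3 endothelial and mural genes summed to 21958 and 12895, with none past 2-fold, and the 7 choroid plexus and ciliated genes to 984 and 2305, with Mir449b at 0 in replicate 1. The liver gene was at 32.3 and 141 CPM, and the 5 muscle genes, of which 1 was detected, summed to 26.8 and 38.2, with 4 at 0 in replicate 1 and 3 in replicate 2. Several lists, the neuronal and the muscle one among them, hold numbered copies of the same miRNA. Reads that match several places are counted for no gene, so these sums can be too low and a 0 need not mean absence. The part of these cell types in the members' differences was not tested. In tissue, fewer cells of a type and less of a miRNA per cell cannot be told apart.

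Of the seed pairs found among the RefSeq arms, the one with the highest level was Mir379 and Mir411 (AUGUAAC). Summed over both genes it had 11353 CPM in replicate 1 and 7422 in replicate 2. Mir379 also shares a seed with Mir1193 (GGUAGAC), but Mir1193 was at 110 and 76.2 CPM, so nearly all reads of that pair were those of Mir379. The pairs Mir376b and Mir376c (UGGAUAU) and Mir494 and Mir410 (GGUUGUC) were higher in replicate 2, at 602 against 262 CPM and 264 against 119. Mir758 and Mir1197 (GGUUGAC) summed to 7.66 and 39.6 CPM, and in the pair Mir496a and Mir453 (GGUUGCC) all 272 and 212 CPM came from Mir496a. Which arm the reads came from is not known from these counts.

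Of the 65 seeds, 11 also occur in a miRNA gene outside the members, and 14 of the 15 genes concerned have a row in the tables. Of those 14, only Mir362, Mir370, Mir672 and Mir1983 were above 1 CPM in either library. Mir329 shares the seed of its 3p arm with Mir362 on chromosome X, which was at 29.7 and 39.4 CPM, against 342 and 273 for Mir329. Mir410 shares its 3p seed with the Mir344 genes d and e on chromosome 7, where the highest value was 0.234 CPM. The genes with more reads than their partner in the cluster were Mir370, upstream in the same region, at 1467 and 3675 CPM (3p arm of Mir1193), Mir672 on chromosome X at 611 and 1908 (5p arm of Mir377), and Mir1983 on chromosome 13 at 1216 and 4265 (3p arm of Mir412).
The member arms of the first 2 cases are shown with the seed that recurs outside the cluster.
miR-329-3p: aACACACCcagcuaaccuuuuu
miR-410-3p: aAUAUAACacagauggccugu

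The remaining members were given by range. Mir666, Mir300, Mir412, Mir380, Mir496a, Mir3072, Mir377, Mir539, Mir495, Mir1193, Mir679 and Mir494 had mean levels from 992 CPM for Mir666 down to 43.1 for Mir494. Scaled to library totals, none but Mir494 was past 2-fold between the libraries. Mir539 was at 95.4 and 154 CPM and Mir300 at 543 and 806, both higher in replicate 2 by less than 2-fold. Mir380 was at 270 and 143 CPM and Mir3072 at 298 and 175, both lower by less than 2-fold on that scaling.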

How the data were processed

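Short RNA (size range below 30 in the labels) was sequenced from 2 hippocampus libraries. Per the deposited text beside each table, the authors placed reads on mm10 and deposited whole-number counts per gene of GENCODE M21. For aligner, trimming and counting, settings were not given in the sources used here. No source names the 3 value columns: column 3, which sums higher over genes than the other strand-like column, was read as the count on the gene's strand and used. The 4 rows that name no gene held 64.6% and 68.8% of reads, 41.9% and 46.4% being reads that match several places, and stayed out of totals. CPM, log2 ratios with a pseudocount of 1 CPM and exact intervals were computed with SciPy 1.17.1 and tested on simulated data. Alternatives were edgeR 4.0.16 TMM factors, DESeq2 1.42.0 size factors, other filters, pseudocounts and columns, and leaving out a library. Hairpins were aligned with Biopython 1.88 (match 1, mismatch -1, gap -2 and -0.5). Members and lists were chosen with earlier results of these data known. Named in full are the 12 members with the highest mean CPM, the 5 with the largest ratio in each direction, Mir379, Mir410, Mir134, Mir485, Mir487b, Mir329, Mir381, the Mir376 genes, and the top 3 upstream. p-values were not computed. Adapter ligation is known to favour some miRNA sequences, and its part in the levels was not tested.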

Additional observations from a re-analysis of the deposited data

How the results depend on the processing

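Of 75 recomputed values for the cluster's summaries 59 stayed within the limits set for them and 16 moved. A reversal was defined only for the median log2 ratio, where none occurred. With a library left out, a share or mean level could not leave its limit, which was the SD over both libraries. For those values, staying within the limit therefore carries no information. With TMM or DESeq2 scaling, 3 members were at least 2-fold higher and 9 lower in place of 6 and 5, and their median log2 ratio was -0.68, because both scalings shift all genes; the distance to the median of all genes ran from -0.52 to -0.63 over all alternatives. Of 22 named members, 20 kept the sign of their ratio under these scalings, and Mir487b and Mir409 did not (each 0.17, then -0.19). The members' share was 2.35% of all reads in the tables, which include reads at no gene, and 6.65 to 7.39% with a library left out. Detected members numbered 30 without strand, where the 5 with an opposite-strand gene are at 0, and 33 to 37 with other minimums or 1 library. The mean log2 level of the first 19 members was 7.87 with a pseudocount of 5 CPM and 8.43 over detected members, and 7.53 to 7.73 with a library left out. That of the last 20 was 8.56 and 8.95 with pseudocounts of 0.25 and 5 CPM, 9.63 over detected members and 8.68 to 8.75 with a library left out. The seed pair of Mir496a and Mir453, with Mir453 at 0, went from 3.96 to 2.95, 5.13 and 7.91 under the same 3 changes, and 3.87 to 4.05 by library. The pair of Mir758 and Mir1197 was at 2.85, or 4.05 over detected members. No paired analysis was possible because there is only 1 group. With n = 2, the SD of a level is itself poorly known, and members under about 10 CPM rest on few counts.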
